A study of Aspergillus nidulans and Aspergillus wentii with 48 samples.

Results

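*Aspergillus wentii* is an osmophilic mould, and its strain 'c *gfdB* is CBS141173 with a single inserted *gfdB* gene of *A. nidulans*, driven by the promoter native to it, and the marker *HygR*. The 3 libraries of 'c *gfdB* mycelium under 1 M NaCl were tested directly against the 3 under 2 M sorbitol, which asks how the response to a salt differs from that to a sugar alcohol at these doses when the strain and the time are the same. The members are all 12659 *A. wentii* genes in the deposited table, of 23647 in the whole series, and 6 of its 48 libraries. All 6 cultures were grown for 65 h at 25 °C, moved into fresh minimal broth holding the osmolyte, and sampled after 0.5 h. Also used for comparison are untreated 'c *gfdB* cultures and combined cultures, which held 2 M sorbitol and 1 M NaCl together. So are cultures of CBS141173, the reference strain without *gfdB*. These were grown for the same time at the same temperature, and sampled after the same 0.5 h. The 3 libraries of a group are described as biological replicates. The transgene is not among the counted genes, so the strain label was not checked from the transgene, and 'c *gfdB* is the only *A. wentii* strain here that carries it. The series record gives the doses as 1 M sorbitol and 2 M NaCl, and those of the sample protocol were used.

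Filamentous fungi sense high osmolarity largely through the HOG pathway, in which hybrid histidine kinases such as NikA pass phosphate through the phosphotransfer protein YpdA to the response regulators SskA and SrrA, and SskA controls a kinase cascade with PbsA and HogA. The pathway raises glycerol, the main compatible solute, which is made from dihydroxyacetone phosphate by glycerol 3-phosphate dehydrogenase (GfdA, GfdB) and a phosphatase, made or removed by glycerol dehydrogenases, and taken up by proton symporters. Salt differs from sorbitol in that ions enter the cell and must be pumped out, which draws on the proton gradient made by the plasma membrane H+-ATPase PmaA. Orthologues are those the study listed from *A. nidulans*, and the roles given here are known from *A. nidulans* or yeast. Several *A. wentii* genes often share 1 *A. nidulans* counterpart, and how reads matching more than 1 gene were counted is not stated, so values of such copies are uncertain.

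The 6 libraries held 12117205 to 19381638 reads in genes. The sorbitol libraries were alike, with correlations of log2 CPM (counts scaled to the library total) from 0.988 to 0.993, and differed by more than counting noise. NaCl replicates 2 and 3 correlated at 0.975, while NaCl replicate 1 reached only 0.894 and 0.927 with them and was most like a library of another strain and treatment, CBS141173 sorbitol replicate 2, at 0.940. Compared with the mean of the other NaCl libraries, NaCl replicate 1 had 1658 genes more than 2-fold higher and 1818 more than 2-fold lower, against 1183 and 1095 for NaCl replicate 2 and at most 179 either way for a sorbitol library in its own group. In NaCl replicate 1, 81 genes with 50 reads or more stood above 10 times their level in each of the other 5 libraries, and no gene did so in any of those 5. ASPWEDRAFT_28951, the most abundant of them, stood at 6720 RPKM (reads relative to gene length and to the library's total) there, at 13.4 and 22.4 RPKM in NaCl replicates 2 and 3, and at 2803 RPKM in CBS141173 sorbitol replicate 2. Together these genes took 1.93% of the reads of NaCl replicate 1, at most 0.063% in the other 5 libraries and 1.63% in CBS141173 sorbitol replicate 2. In the other 17 *A. wentii* libraries they took at most 0.878%, and ASPWEDRAFT_28951 stood at 293 RPKM in CBS141173 untreated replicate 3. Counts, group medians and the values of the main genes are therefore also given without NaCl replicate 1. The marker check was limited to 2 genes: γ-actin (ASPWEDRAFT_168397) was abundant in all 6 libraries, and the orthologue of the conidial catalase *catA* (ASPWEDRAFT_48635) stayed between 0.425 and 0.850 RPKM.

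**Figure D1:**
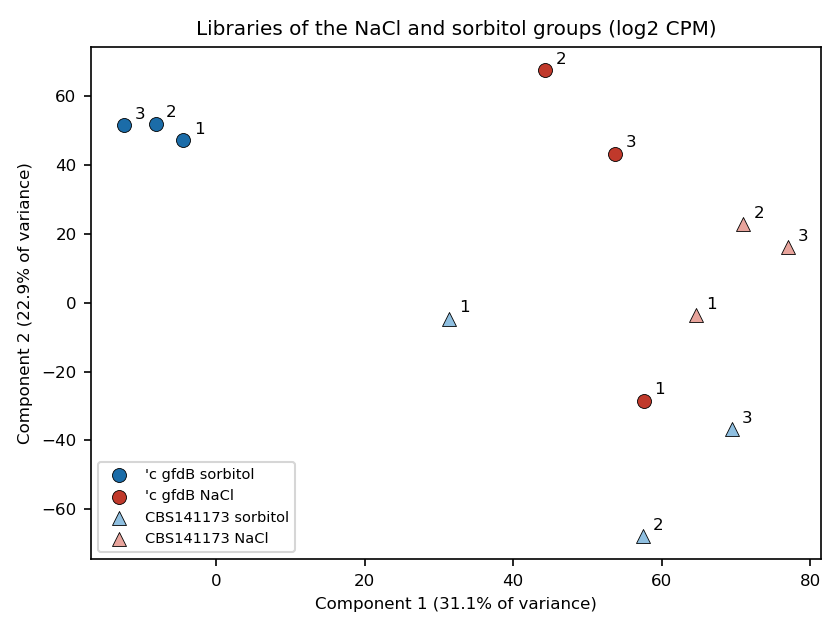
Principal components of log2 CPM (prior count 2) over the 24 *A. wentii* libraries, shown for the 12 libraries of the NaCl and sorbitol groups of both strains; each point is a library, numbered by replicate, and the axes give the share of variance. On the axes drawn the 3 'c *gfdB* sorbitol libraries lie together, NaCl replicates 2 and 3 lie to their right, and NaCl replicate 1 lies lower, among the CBS141173 libraries. Component 3 (16.8% of variance, not drawn) placed it away from them. There NaCl replicates 1 to 3 stood at 56.3, 14.8 and 38.2, and the CBS141173 libraries shown at 3.99 or lower.

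Far more genes were higher under NaCl than under sorbitol. Of 11094 genes with enough reads to be tested, 1452 (13.1%) were higher and 399 (3.6%) were lower under NaCl by more than 2-fold, at an adjusted p under 0.05 in edgeR's quasi-likelihood test with Benjamini-Hochberg adjustment. Without the fold limit 3350 genes (30.2%) passed, 2201 of them higher. The median log2 fold change of all genes tested was 0.12, and 0.03 without NaCl replicate 1. Large changes were nearly all increases: 95 called genes were more than 8-fold higher and 4 more than 8-fold lower. The RPKM of the 2 groups did not overlap in 65 of the 95 and in all 4. In 1162 of the 1452 and 382 of the 399 the RPKM of the 2 groups did not overlap, which over all genes tested held for 22.6% with NaCl above and 18.4% with NaCl below. As the samples are bulk mycelium, fewer cells of a type and less RNA per cell cannot be told apart.

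Without NaCl replicate 1 the counts were 1089 (9.72%) and 264 (2.36%), and 60.5% of the higher and 43.4% of the lower genes kept their call. Of the 95 genes more than 8-fold higher, 37 were still called higher, and of the 4 more than 8-fold lower, 3 were still called lower. Of the 81 genes that stood above 10 times each other library in NaCl replicate 1, 66 were called higher with that library and 1 without it. Without NaCl replicate 2 the counts were 1737 and 915. A fit on the 6 libraries alone called 615 genes higher (5.94%) and 1.01% of 10347 lower, and 548 higher and 79 lower genes were called with all 24 libraries, without NaCl replicate 1 and in the 6 alone. More genes were higher than lower in each of these fits.

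**Figure D2:**
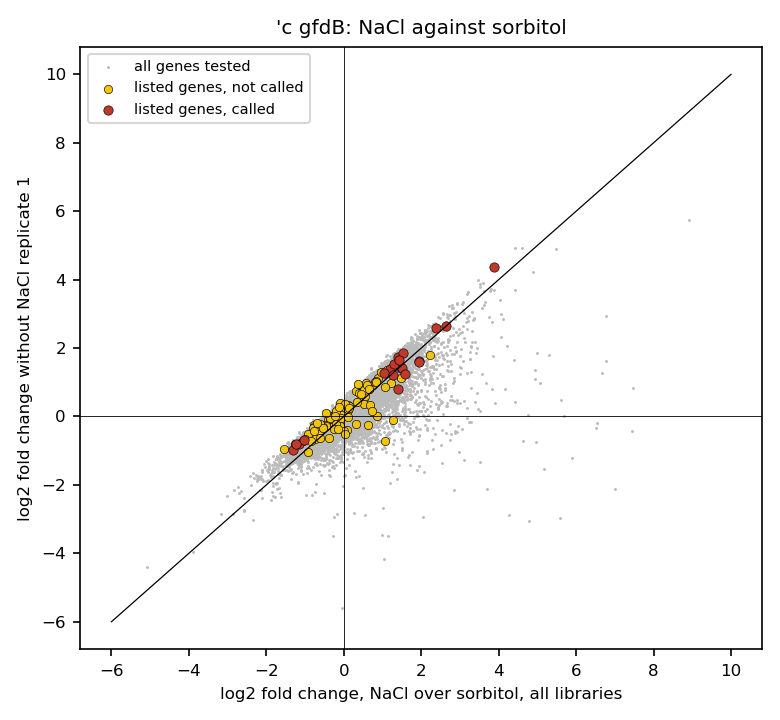
The log2 fold change of each gene tested (NaCl over sorbitol in 'c *gfdB*) with all 24 libraries in the fit, on the horizontal axis, and without NaCl replicate 1, on the vertical axis; grey points are genes, coloured points are genes of the study's lists, and the diagonal marks equal values. Most genes lie near the diagonal, and a tail of genes with large increases drops to about 0 or below it when NaCl replicate 1 is left out.

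The study's lists of osmotic stress, glycerol metabolism, oxidative stress and RT-qPCR genes hold *A. wentii* genes of which 106 were tested and 11 were not; those 11 did not exceed 2.55 RPKM in any of the 6 libraries. Among the 106, 16 (15.1%) were called higher and 4 (3.77%) lower, close to the 13.1% and 3.6% of all genes tested. Their median log2 fold change was 0.11 beside 0.12 for all genes, and 0.13 beside 0.03 without NaCl replicate 1. A further 10 passed the test at under 2-fold. The 16 held a kinase, a phosphatase, a transcription factor and a proton pump gene. The rest encode glycerol enzymes, symporters, antioxidant enzymes and aldehyde dehydrogenase domain proteins. Of the 16, 15 kept their call without NaCl replicate 1 and 9 also in the 6 libraries alone, while none of the 4 lower calls was kept without NaCl replicate 1. Leaving that library out brought 3 higher calls and 1 lower call that the full set did not give.

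**Figure D3:**
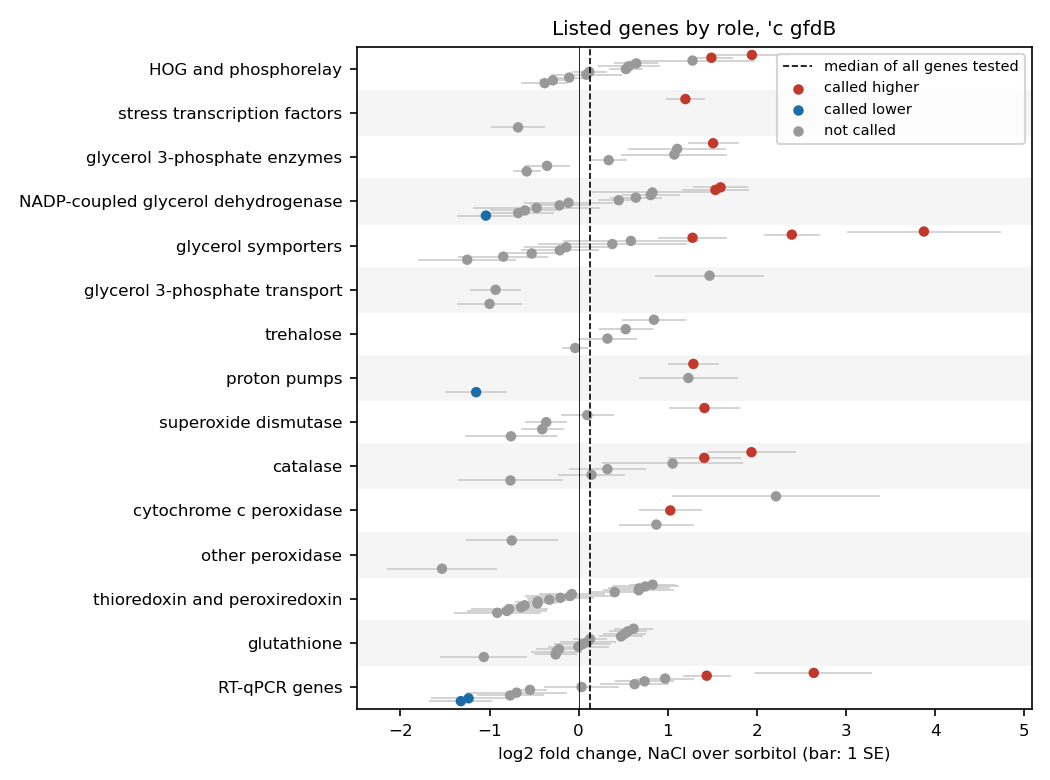
Log2 fold change (NaCl over sorbitol in 'c *gfdB*, bars 1 SE from edgeR) of the 106 listed genes tested, grouped by role; red and blue points are genes called higher and lower, grey points are not called, and the dashed line is the median of all genes tested, 0.12. Every group with more than 2 genes except the cytochrome c peroxidases holds values on both sides of 0.

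Of 11 tested HOG and phosphorelay genes, 2 rose (18.2%, beside 13.1% of all genes tested) and none fell. Their median log2 fold change was 0.53, and 0.18 without NaCl replicate 1. ASPWEDRAFT_184594, 1 of 4 genes sharing the hybrid histidine kinase *nikA* as counterpart, stood at 13.0, 11.6 and 10.6 RPKM in the sorbitol libraries (replicates 1 to 3) and at 73.2, 16.8 and 51.1 RPKM in the NaCl libraries. All NaCl libraries lay above the sorbitol ones, replicate 1 highest and replicate 2 nearest to them. Its log2 fold change was 1.94 (SE 0.43, adjusted p = 0.00312 by edgeR), and 1.62 without NaCl replicate 1. The other 3 *nikA* genes were not called, at log2 fold changes of -0.38, -0.11 and 1.28.

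The orthologue of *ptpA*, a protein tyrosine phosphatase (ASPWEDRAFT_53169), stood at 41.0, 35.2 and 35.2 RPKM under sorbitol and 134.0, 75.8 and 111.5 RPKM under NaCl. The groups were well apart, the lowest NaCl library lying above the highest sorbitol library. On the log2 scale the fold change was 1.49 (SE 0.25, adjusted p = 0.000333 by edgeR), 1.41 without NaCl replicate 1, and the call was kept under all 16 alternatives.

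The kinases and regulators between them moved less. ASPWEDRAFT_111477, the first of a pair of genes listed for the MAP kinase *hogA*, had 94.2, 102.1 and 92.7 RPKM under sorbitol and 158.9, 110.1 and 156.6 RPKM under NaCl. The groups did not overlap, and the log2 fold change of 0.53 (SE 0.19, adjusted p = 0.0407 by edgeR) passed the test at under 2-fold, though not without NaCl replicate 1 (adjusted p = 0.069) or 3 (0.36, adjusted p = 0.184), or without any 1 sorbitol library (adjusted p = 0.104, 0.0725 and 0.119). The second *hogA* gene, ASPWEDRAFT_41261, ranged from 21.0 to 25.0 RPKM under sorbitol and stood at 13.6, 38.2 and 46.4 RPKM under NaCl, so NaCl replicate 1 lay below all sorbitol libraries and the other NaCl libraries above them. It did not pass the test, with a log2 fold change of 0.56 (SE 0.35, adjusted p = 0.225), and passed without NaCl replicate 1 at 0.97 (adjusted p = 0.0125).

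The phosphotransfer gene *ypdA* (ASPWEDRAFT_99233) had 124.1, 128.3 and 114.3 RPKM under sorbitol and 166.8, 252.1 and 162.6 RPKM under NaCl. Although the groups did not overlap, its log2 fold change of 0.65 (SE 0.24) narrowly missed the test (adjusted p = 0.0509 by edgeR, 0.0264 without NaCl replicate 1). The kinase gene *pbsA* (ASPWEDRAFT_51084) overlapped between the groups, at 27.6 to 37.4 RPKM under sorbitol and 28.91 to 39.96 RPKM under NaCl, and did not pass the test (log2 fold change 0.12, SE 0.19). The response regulator gene *srrA* (ASPWEDRAFT_202686) stood at 13.1, 13.8 and 14.9 RPKM under sorbitol and 26.9, 7.87 and 12.2 RPKM under NaCl. Its log2 fold change was 0.09 (SE 0.40), with NaCl replicate 1 above the sorbitol libraries and the other NaCl libraries below them, and it was -0.40 without NaCl replicate 1; neither passed the test.

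The 2 listed transcription factors differed. The bZIP factor gene *atfA* (ASPWEDRAFT_37015), a partner of HogA in stress responses and conidia, stood at 97.01, 89.81 and 93.23 RPKM under sorbitol and 179.8, 249.6 and 217.3 RPKM under NaCl. Here NaCl replicate 1 was the lowest of the NaCl libraries, and all 3 were well above the sorbitol ones. *atfA* rose by 1.20 on the log2 scale (SE 0.22, adjusted p = 0.000756 by edgeR), 1.38 without NaCl replicate 1, a call kept under all 16 alternatives. The zinc finger factor gene *msnA* (ASPWEDRAFT_101996) stood at 17.2, 20.9 and 25.0 RPKM under sorbitol and 10.98, 20.18 and 8.87 RPKM under NaCl. Its groups overlapped through NaCl replicate 2, and its log2 fold change of -0.68 (SE 0.30, adjusted p = 0.090) did not pass the test. Without NaCl replicate 2 it was -1.14 (adjusted p = 0.00581), past both limits, and without NaCl replicate 1 it was -0.49 (adjusted p = 0.289).

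Among the glycerol 3-phosphate enzymes the gene called was *gfdA*, the native glycerol 3-phosphate dehydrogenase gene (ASPWEDRAFT_104967). The study lists it as the counterpart of both *gfdA* and *gfdB*. It stood at 289, 288 and 297 RPKM under sorbitol and 1081, 585 and 892 RPKM under NaCl. The sorbitol libraries agreed closely with each other, and every NaCl library was well above them. *gfdA* rose by 1.51 on the log2 scale (SE 0.29, adjusted p = 0.00103 by edgeR) and by 1.41 without NaCl replicate 1, and kept its call under all 16 alternatives. Untreated 'c *gfdB* cultures stood at 142 ± 16.04 RPKM (SD, n = 3), so the mean level was higher under either single osmolyte than without it.

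The next enzyme, glycerol 3-phosphate phosphatase, has 2 genes. The abundant gene, ASPWEDRAFT_104044 (named after its values were seen), had 83.6, 85.2 and 73.2 RPKM under sorbitol and 44.5, 62.5 and 55.8 RPKM under NaCl. All NaCl libraries were below the sorbitol libraries, and it changed by -0.58 on the log2 scale (SE 0.16, adjusted p = 0.0103 by edgeR), under 2-fold and opposite to *gfdA*, and by -0.39 (adjusted p = 0.0473) without NaCl replicate 1. The other, ASPWEDRAFT_673647, stayed at or under 3.53 RPKM in all 6 libraries and did not pass the test. Neither the 2 glycerol kinase genes nor the FAD-dependent dehydrogenase gene passed it. Of these 6 genes 1 was therefore called (16.7%, beside 13.1% of all genes tested). Their median was 0.71, and 0.19 without NaCl replicate 1, beside 0.12 and 0.03 for all genes tested.

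NADP-coupled glycerol dehydrogenase interconverts glycerol and dihydroxyacetone or glyceraldehyde. Of 12 tested genes listed for it, 2 rose (16.7%, beside 13.1% of all genes tested) and 1 fell (8.33%, beside 3.6%). Their median was 0.17, and 0.47 without NaCl replicate 1. ASPWEDRAFT_104176 stood at 3.11, 3.84 and 4.70 RPKM under sorbitol and 19.3, 6.67 and 10.9 RPKM under NaCl. It rose by 1.59 on the log2 scale (SE 0.31, adjusted p = 0.00122 by edgeR), with no overlap of the groups, and by 1.25 without NaCl replicate 1. ASPWEDRAFT_22248 stood at 1.19, 0.922 and 1.36 RPKM and at 1.97, 5.72 and 2.49 RPKM, NaCl replicate 2 being the highest. It rose by 1.53 on the log2 scale (SE 0.38, adjusted p = 0.00588 by edgeR), and without NaCl replicate 2 it was 0.91, under the fold limit (1.86 without NaCl replicate 1).

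ASPWEDRAFT_37490 was the dehydrogenase gene that fell, from 5.34, 7.48 and 5.52 RPKM under sorbitol to 1.69, 4.78 and 2.52 RPKM under NaCl, replicate 1 the lowest. Its log2 fold change of -1.04 (SE 0.32, adjusted p = 0.0206 by edgeR) was -0.70 and no longer passed without NaCl replicate 1 (adjusted p = 0.0912), and it was also lost without NaCl replicate 3 (-0.98, adjusted p = 0.0601) and without sorbitol replicate 2 (-0.86, adjusted p = 0.0927). The most abundant genes of the group were not called. ASPWEDRAFT_101893, named after its values were seen, had 774 to 892 RPKM under sorbitol and 879 to 1384 RPKM under NaCl, with a log2 fold change of 0.45 (SE 0.23), which passed the test at 0.67 (adjusted p = 0.0303) without NaCl replicate 1.

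Of the 12 genes that share AN9168, a solute:proton symporter with a role in glycerol transport, 10 were tested. Among these, 3 rose (30%, beside 13.1% of all genes tested), and the median was 0.12, and 0.54 without NaCl replicate 1. ASPWEDRAFT_534313, by far the most abundant, stood at 393, 323 and 306 RPKM under sorbitol and at 1513, 1610 and 2251 RPKM under NaCl. The NaCl libraries, replicate 1 included, lay close together and far above the sorbitol libraries. It rose by 2.39 on the log2 scale (SE 0.32, adjusted p = 5e-05 by edgeR), by 2.57 without NaCl replicate 1, and its call was kept under all 16 alternatives. Its level was 94.7 ± 19.3 RPKM (SD, n = 3) in untreated cultures and 12.5 ± 0.946 RPKM in the combined NaCl + sorbitol cultures, so the combination gave the lowest of the 4 conditions.

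ASPWEDRAFT_112163 had the largest log2 fold change of any listed gene tested. It stood at 14.98, 6.44 and 5.45 RPKM under sorbitol and 30.5, 61.6 and 281.2 RPKM under NaCl, with no overlap. The log2 fold change of 3.87 (SE 0.87, adjusted p = 0.00343 by edgeR) was 4.36 without NaCl replicate 1 and 2.31 (adjusted p = 0.0318) without NaCl replicate 3, and in the 6 libraries alone it was 3.88 with an adjusted p of 0.0505. ASPWEDRAFT_174802 had 3.33, 4.06 and 4.14 RPKM under sorbitol and 11.7, 11.5 and 5.80 RPKM under NaCl, rising by 1.28 on the log2 scale (SE 0.38, adjusted p = 0.0182 by edgeR). Leaving out sorbitol replicate 1, 2 or 3 took it to an adjusted p of 0.0665, 0.0504 or 0.0507.

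The other 7 symporter genes did not pass the test. Their log2 fold changes ran from -1.25 to 0.59, with values on both sides of 0. ASPWEDRAFT_35932, named after its values were seen, was abundant yet scattered, at 64.4, 102.4 and 102.05 RPKM under sorbitol and 4.29, 279.9 and 58.3 RPKM under NaCl. None of 3 tested glycerol 3-phosphate transporter genes was called: in 2 all NaCl libraries lay below the sorbitol libraries, at log2 fold changes of -0.999 and -0.932 that passed the test at under 2-fold, and in 1 all lay above.

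No trehalose gene was called among 4 tested, with a median log2 fold change of 0.43 that was 0.03 without NaCl replicate 1. Trehalose 6-phosphate synthase and phosphatase (TpsA, OrlA) make this stress sugar and trehalase (TreB) breaks it down. ASPWEDRAFT_99274, the best match to *tpsA*, stood at 118.3, 106.1 and 106.4 RPKM under sorbitol and 427.6, 84.2 and 129.4 RPKM under NaCl. NaCl replicate 1 was far above the sorbitol libraries and replicate 2 below them, and the log2 fold change of 0.84 (SE 0.36, adjusted p = 0.0784 by edgeR) became 0.03 without NaCl replicate 1.

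The plasma membrane proton pump *pmaA* has 3 counterparts, of which 1 rose (33.3%, beside 13.1% of all genes tested) and 1 fell (33.3%, beside 3.6%). Each of these shares rests on 1 gene. ASPWEDRAFT_173501, the abundant one, stood at 1489, 1508 and 1929 RPKM under sorbitol and 407, 1180 and 625 RPKM under NaCl. All NaCl libraries lay below, replicate 1 lowest. The log2 fold change was -1.15 (SE 0.35, adjusted p = 0.0189 by edgeR), and this call was lost without NaCl replicate 1 (-0.81, adjusted p = 0.0736), NaCl replicate 3 (-1.09, adjusted p = 0.0569) or sorbitol replicate 3 (-1.03, adjusted p = 0.0694). Untreated cultures had 873 ± 132 RPKM (SD, n = 3) and the combined cultures 2236 ± 411 RPKM. ASPWEDRAFT_114988 was far less abundant per length, at 2.42, 2.33 and 2.36 RPKM under sorbitol and 4.31, 7.49 and 5.64 RPKM under NaCl. It rose by 1.29 on the log2 scale (SE 0.28, adjusted p = 0.00305 by edgeR), by 1.52 without NaCl replicate 1, with no overlap of the groups.

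**Figure D4:**
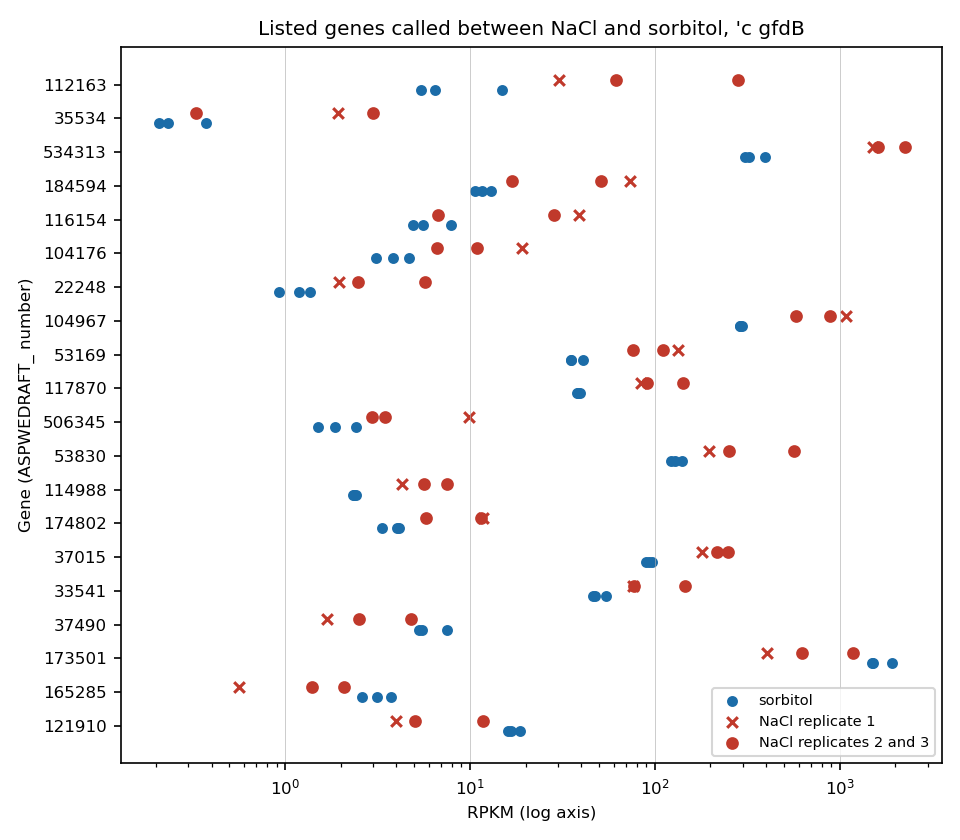
RPKM (log axis) in each of the 6 'c *gfdB* libraries for the 20 listed genes called between NaCl and sorbitol, ordered by log2 fold change; blue dots are the sorbitol libraries, red dots NaCl replicates 2 and 3, and the red cross NaCl replicate 1. In 18 of the 20 the groups do not overlap, and the cross is the lowest of the NaCl values in all 4 genes that fell.

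Of 44 tested oxidative stress genes, 4 rose (9.09%, beside 13.1% of all genes tested) and none fell (beside 3.6%). Their median was 0.02, and 0.16 without NaCl replicate 1, beside 0.12 and 0.03 for all genes tested. Catalases break down hydrogen peroxide, and 2 of 6 tested catalase genes rose (33.3%). ASPWEDRAFT_53830, listed as the best match to *catC*, stood at 140.02, 129.5 and 122.3 RPKM under sorbitol and 197.7, 252.7 and 569.4 RPKM under NaCl. The groups did not overlap and NaCl replicate 3 was the highest. On the log2 scale the fold change was 1.41 (SE 0.41, adjusted p = 0.0152 by edgeR); it was 1.74 without NaCl replicate 1 and 0.70 (adjusted p = 0.165) without NaCl replicate 3, and the call was also lost without sorbitol replicate 2 (adjusted p = 0.0504) or 3 (adjusted p = 0.0574).

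ASPWEDRAFT_116154, a further catalase gene, stood at 5.601, 7.951 and 4.945 RPKM under sorbitol and 38.7, 6.76 and 28.5 RPKM under NaCl, NaCl replicate 2 falling among the sorbitol libraries. It rose by 1.94 on the log2 scale (SE 0.50, adjusted p = 0.00749 by edgeR) and by 1.60 without NaCl replicate 1. Its call was lost in the 6 libraries alone (1.99, adjusted p = 0.0692) and in these less NaCl replicate 1 (1.54, adjusted p = 0.055). ASPWEDRAFT_33541, a cytochrome c peroxidase gene, stood at 54.2, 47.3 and 46.2 RPKM and at 76.2, 77.2 and 145.8 RPKM. Its groups did not overlap. Its log2 fold change of 1.03 (SE 0.35, adjusted p = 0.0343 by edgeR) was just past the fold limit, was 1.26 without NaCl replicate 1, and was 0.54 (adjusted p = 0.246) without NaCl replicate 3; the call was also lost without sorbitol replicate 1, 2 or 3 (adjusted p = 0.0656, 0.0927 and 0.102).

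ASPWEDRAFT_506345, 1 of 5 superoxide dismutase genes, had 1.85, 2.42 and 1.51 RPKM under sorbitol and 9.91, 2.96 and 3.46 RPKM under NaCl. The groups did not overlap, but NaCl replicate 1 was far above the rest. The log2 fold change was 1.41 (SE 0.40, adjusted p = 0.0124 by edgeR) and fell to 0.80 (adjusted p = 0.130) without that library; the call was also lost without sorbitol replicate 3 (adjusted p = 0.0627). The other 4 superoxide dismutase genes did not pass the test, and none of 16 thioredoxin and peroxiredoxin genes or 12 glutathione genes was called in either direction.

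Among the 11 tested RT-qPCR genes, 2 rose (18.2%, beside 13.1% of all genes tested) and 2 fell (18.2%, beside 3.6%). Their median log2 fold change was 0.03, and -0.24 without NaCl replicate 1. ASPWEDRAFT_173702 (*orlA*), for which the study also gives primers, was counted with the trehalose genes and not here. It was not called (log2 fold change 0.53, SE 0.30, adjusted p = 0.189 by edgeR). Both that rose encode aldehyde dehydrogenase domain proteins, a family that oxidises aldehydes. ASPWEDRAFT_117870 stood at 38.5, 39.3 and 38.2 RPKM under sorbitol and 84.2, 141.9 and 90.6 RPKM under NaCl. With sorbitol libraries nearly equal and NaCl libraries all above them, it rose by 1.44 on the log2 scale (SE 0.27, adjusted p = 0.000904 by edgeR), a call kept under all 16 alternatives. ASPWEDRAFT_35534 was barely expressed, at 0.375, 0.207 and 0.233 RPKM and at 1.94, 3.00 and 0.328 RPKM, NaCl replicate 3 lying within the sorbitol range. It rose by 2.64 on the log2 scale (SE 0.66, adjusted p = 0.00637 by edgeR), with or without NaCl replicate 1, and by 1.94 without NaCl replicate 2. With library weights it was 1.15 (adjusted p = 0.156), and it had too few reads to be tested in the 6 libraries alone.

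The 2 that fell encode a rhodanese domain protein and a glycoside hydrolase family 5 protein. The rhodanese gene (ASPWEDRAFT_121910) stood at 16.8, 18.7 and 16.1 RPKM under sorbitol and 3.99, 11.7 and 5.05 RPKM under NaCl. It had no overlap and a log2 fold change of -1.32 (SE 0.35, adjusted p = 0.00955 by edgeR), which was -0.99 (adjusted p = 0.0413) without NaCl replicate 1, just under the fold limit, and -1.95 without NaCl replicate 2. The glycoside hydrolase gene (ASPWEDRAFT_165285) stood at 2.59, 3.16 and 3.73 RPKM and at 0.562, 2.07 and 1.39 RPKM. The log2 fold change of -1.23 (SE 0.43, adjusted p = 0.0353 by edgeR) did not pass without NaCl replicate 1 (adjusted p = 0.132), NaCl replicate 3 (0.0596), sorbitol replicate 2 (0.0807) or sorbitol replicate 3 (0.109).

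Mannitol, another polyol of *Aspergillus*, is handled by 2 of the RT-qPCR genes. The mannitol 2-dehydrogenase gene (ASPWEDRAFT_105168) stood at 269, 207 and 179 RPKM under sorbitol and 232, 370 and 658 RPKM under NaCl, the groups overlapping through NaCl replicate 1. Its log2 fold change of 0.97 (SE 0.32, adjusted p = 0.0275 by edgeR) lay just under the fold limit and was 1.31 (adjusted p = 0.00207) without NaCl replicate 1, but 0.39 (adjusted p = 0.297) without NaCl replicate 3. Without NaCl replicate 2 (1.06) or sorbitol replicate 1 (1.14) it was past both limits, and without sorbitol replicate 2 (adjusted p = 0.0824) or 3 (adjusted p = 0.109) it did not pass the test. The mannitol 1-phosphate 5-dehydrogenase gene (ASPWEDRAFT_117545) stood at 543, 383 and 452 RPKM under sorbitol and 1561, 278 and 461 RPKM under NaCl, with NaCl replicate 1 alone far above. A log2 fold change of 0.63 (SE 0.39, adjusted p = 0.224) turned to -0.24 (adjusted p = 0.61) without that library and was 1.01 (adjusted p = 0.0294) without NaCl replicate 2.

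γ-Actin (ASPWEDRAFT_168397), a housekeeping gene, stood at 1500, 1428 and 1387 RPKM under sorbitol and 762, 1174 and 1028 RPKM under NaCl. All NaCl libraries were lower, by -0.55 on the log2 scale (SE 0.19, adjusted p = 0.0385 by edgeR), and the value was -0.33 (adjusted p = 0.162) without NaCl replicate 1. It did not pass without sorbitol replicate 1, 2 or 3 either (adjusted p = 0.0969, 0.0896 and 0.0726). The chitin synthase gene (ASPWEDRAFT_189665) had 67.9 to 80.3 RPKM under sorbitol and 243.8, 73.5 and 86.3 RPKM under NaCl, high in NaCl replicate 1 alone (log2 fold change 0.74, SE 0.33, adjusted p = 0.0947). Without that library it was 0.15, and without NaCl replicate 2 it was 1.01 (adjusted p = 0.0238). The enoyl reductase domain gene (ASPWEDRAFT_25409) was abundant, at 3945 to 4773 RPKM under sorbitol and 1272, 2845 and 3331 RPKM under NaCl. Although its groups did not overlap, the log2 fold change of -0.77 (SE 0.37, adjusted p = 0.122), or -0.41 without NaCl replicate 1, did not pass the test. The alkaline protease (ASPWEDRAFT_166217, log2 fold change -0.70, SE 0.56) and cytochrome P450 (ASPWEDRAFT_33357, 0.03, SE 0.42) genes stayed at or under 2.22 RPKM in all 6 libraries and did not pass either. The xylose reductase gene, which is also listed as a glycerol dehydrogenase, had too few reads to be tested.

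The gene IDs carry no product names in the files, so beyond the lists only a few are given. The largest increase without overlap of the groups was that of ASPWEDRAFT_158670, with 0 reads in every sorbitol library and 192, 3 and 8 reads in NaCl replicates 1 to 3. Against a floor of 3 reads over the sorbitol group this is at least 57.5-fold higher, and at least 4.95-fold without NaCl replicate 1, where it was not called. ASPWEDRAFT_46704 followed, at 1.01, 1.14 and 0.903 RPKM under sorbitol and 369.9, 1.44 and 13.1 RPKM under NaCl. Its log2 fold change of 6.77 (SE 1.43, adjusted p = 0.00236 by edgeR) was 2.94 (adjusted p = 0.036) without NaCl replicate 1, so 1 library carried most of its size.

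The largest decreases rested less on that library. ASPWEDRAFT_102062 stood at 3.06, 5.26 and 6.78 RPKM under sorbitol and 0, 0.279 and 0.178 RPKM under NaCl, a log2 fold change of -5.09 (SE 1.18, adjusted p = 0.00413 by edgeR), -4.39 without NaCl replicate 1 and -5.81 without NaCl replicate 2. ASPWEDRAFT_34272 stood at 0.653, 1.38 and 2.54 RPKM and at 0.125, 0.128 and 0.0635 RPKM (log2 fold change -3.90, SE 0.93, adjusted p = 0.0051, and -3.95 without NaCl replicate 1). Neither gene overlapped between the groups.

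The most abundant genes called higher were ASPWEDRAFT_30889 and ASPWEDRAFT_283469. ASPWEDRAFT_283469 stood at 1836, 1641 and 1369 RPKM under sorbitol and 3030.0, 3432 and 5306 RPKM under NaCl, and rose by 1.29 on the log2 scale (SE 0.35, adjusted p = 0.0103 by edgeR). It was 1.51 without NaCl replicate 1, and its call was lost without NaCl replicate 3 (0.91, adjusted p = 0.066) or sorbitol replicate 3 (1.17, adjusted p = 0.0514). ASPWEDRAFT_30889 stood at 1435, 1108 and 716 RPKM and at 2118, 2524 and 7566 RPKM, highest in NaCl replicate 3. It rose by 1.94 on the log2 scale (SE 0.59, adjusted p = 0.0196 by edgeR), and by 2.30 without NaCl replicate 1, a call lost without NaCl replicate 3 (1.01, adjusted p = 0.185), sorbitol replicate 2 (adjusted p = 0.0591) or sorbitol replicate 3 (adjusted p = 0.0855).

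Of the genes called lower, ASPWEDRAFT_28872 and ASPWEDRAFT_187989 were the most abundant. ASPWEDRAFT_187989 stood at 6690.1, 6570.2 and 8811 RPKM under sorbitol and 3337, 4081 and 3334 RPKM under NaCl, and its groups were well apart (log2 fold change -1.06, SE 0.29, adjusted p = 0.0116). It was -0.93 without NaCl replicate 1 and -0.91 (adjusted p = 0.0546) without sorbitol replicate 3. ASPWEDRAFT_28872 stood at 9178, 10165 and 10709 RPKM and at 1258, 7202 and 3441 RPKM, all NaCl libraries below (log2 fold change -1.31, SE 0.48, adjusted p = 0.0431). Its call was lost on leaving out any library but NaCl replicate 2 (-2.06), at an adjusted p of 0.133 without NaCl replicate 1, 0.104 without NaCl replicate 3 and 0.0704, 0.0917 and 0.098 without sorbitol replicates 1 to 3.

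The comparison most like this one is NaCl against sorbitol in CBS141173, which lacks *gfdB* and shares no library with it. There 1001 genes were higher and 980 lower under NaCl. Whether the change differs between the strains was tested as an interaction: 1216 genes (11%) had a more positive and 518 (4.67%) a more negative change in 'c *gfdB*. These counts changed strongly with the libraries in the fit. Without 'c *gfdB* NaCl replicate 1 and CBS141173 sorbitol replicate 2 the counts were 52 (0.466%) and 37 (0.332%), of which 46 and 30 were also called with them. This pair was chosen after seeing the data. CBS141173 sorbitol replicate 2 had 1013 genes over 2-fold above and 1107 below the other libraries of its group. For CBS141173 sorbitol replicate 1 these were 913 and 1017, so replicate 2 was little further off. Leaving out 1 library at a time gave totals from 516, without 'c *gfdB* NaCl replicate 1, to 3053, without CBS141173 sorbitol replicate 1. Totals moved by over 1.5 times also without CBS141173 sorbitol replicate 2 (792) or 3 (1017), CBS141173 NaCl replicate 2 (721) or 3 (1083), 'c *gfdB* NaCl replicate 2 (3033) and 'c *gfdB* sorbitol replicate 2 (829) or 3 (705). A fit on the 12 libraries alone called 0 genes by edgeR, with 2859 of 10986 at an unadjusted p under 0.05, while DESeq2 on all 24 libraries called 2060.

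In 16 of the 106 listed genes the change was more positive in 'c *gfdB* (15.1%, beside 11% of all genes tested). In 3 it was more negative (2.83%, beside 4.67%). With both libraries left out 2 remained, both more positive in 'c *gfdB*, while 0.466% of all genes tested were then more positive. The catalase gene ASPWEDRAFT_116154 had 34.6 to 120.2 RPKM under sorbitol and 11.05 to 30.62 RPKM under NaCl in CBS141173, opposite to its rise in 'c *gfdB*. The difference was 3.68 on the log2 scale (SE 0.69, adjusted p = 0.011 by edgeR) and 3.14 (adjusted p = 0.0472) without both libraries. The glycerol kinase gene *gcnA* (ASPWEDRAFT_47372) stood at 160 to 287 RPKM under sorbitol and 90.7 to 120 RPKM under NaCl in CBS141173. In 'c *gfdB* it had 156.1, 128.7 and 118.1 RPKM under sorbitol and 170.2, 147.8 and 197.0 RPKM under NaCl, and the difference was 1.20 (SE 0.29, adjusted p = 0.0147) and 1.35 (adjusted p = 0.0398) without both libraries.

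For *gfdA* (ASPWEDRAFT_104967) the strain difference was not kept without both libraries. CBS141173 had 482 to 1452 RPKM under sorbitol and 782 to 1160 RPKM under NaCl, a log2 fold change of 0.24 (SE 0.28), against 1.51 in 'c *gfdB*. The difference was 1.27 (SE 0.40, adjusted p = 0.0335 by edgeR) and was 0.56 (adjusted p = 0.309) without both libraries. The symporter gene ASPWEDRAFT_534313 rose in both strains, by 2.39 in 'c *gfdB* and by 1.30 (SE 0.31, adjusted p = 0.00449) in CBS141173, and the difference of 1.09 (SE 0.43) did not pass the test (adjusted p = 0.0744). *atfA* rose by 1.20 in 'c *gfdB* and had a log2 fold change of 0.75 (SE 0.22, adjusted p = 0.0136) in CBS141173, with a difference of 0.44 (SE 0.30) that did not pass either (adjusted p = 0.297).

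**Figure D5:**
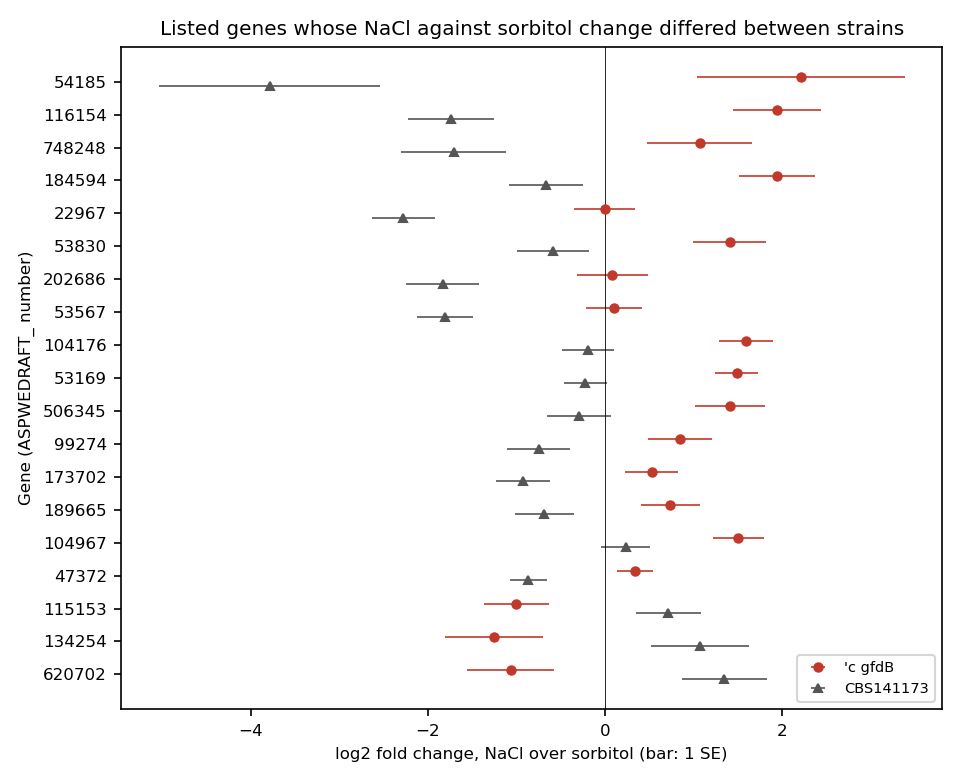
Log2 fold change of NaCl over sorbitol (bars 1 SE from edgeR) in 'c *gfdB* (red circles) and CBS141173 (grey triangles) for the 19 listed genes whose change differed between the strains with all 24 libraries. In 16 genes the red circle lies to the right of the triangle. Without 'c *gfdB* NaCl replicate 1 and CBS141173 sorbitol replicate 2, a pair chosen after seeing the data, 2 of the 19 differences passed the test.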

How the data were processed

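Mycelial RNA was sequenced from 3 biological replicates per strain and condition. The authors aligned single-end TruSeq reads with HISAT2 2.1.0, counted them with featureCounts on a FungiDB annotation, and deposited gene read counts, and RPKM made from them with edgeR (count over gene length and library total). Strand and multiple matches are not stated. All 24 *A. wentii* libraries (11758085 to 32274107 reads) entered 1 model of 8 groups in edgeR 4.0.16 (R 4.3.3; TMM, filterByExpr, estimateDisp, glmQLFit, glmQLFTest). Calls needed a Benjamini-Hochberg adjusted p under 0.05 and over 2-fold change; the SE is the log2 fold change over the square root of F. Scripts were tested on simulated data. Alternatives used other scaling and filters, DESeq2 1.42.0, limma 3.58.1 on log2(RPKM + 1), a replicate block and fewer libraries. Chosen after seeing the data were library weights and the fit on the compared libraries less 'c *gfdB* NaCl replicate 1. So was the fit without both that library and CBS141173 sorbitol replicate 2. Named genes are members of the study's lists called in the contrast or the strain difference, orthologues of *gfdA* and of set osmotic signalling genes, RT-qPCR genes, and 2 IDs each way by size, abundance and strain difference; others are said to be chosen after their values were seen. Members and lists were chosen with earlier results of these data known. Planned groups by product name were not built, since product names were at hand for the RT-qPCR genes but not for all *A. wentii* genes.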

Additional observations from a re-analysis of the deposited data

Results flagged for a closer look

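Each result here is a gene whose change from sorbitol to NaCl differed between 'c *gfdB* and CBS141173 in edgeR's interaction test (adjusted p under 0.05). Values are log2 differences, 'c *gfdB* minus CBS141173, with those without 'c *gfdB* NaCl replicate 1 and CBS141173 sorbitol replicate 2 counted at the end.

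In signalling and glycerol metabolism the difference was 2.61 for the *nikA* gene ASPWEDRAFT_184594, 1.71 for *ptpA* (ASPWEDRAFT_53169), 1.92 for *srrA* (ASPWEDRAFT_202686) and 1.27 for *gfdA* (ASPWEDRAFT_104967). It was 1.20 for the *gcnA* gene ASPWEDRAFT_47372, 2.78 for the second *gcnA* gene (ASPWEDRAFT_748248) and 1.78 for the glycerol dehydrogenase gene ASPWEDRAFT_104176. It was -1.72 for the glycerol 3-phosphate transporter gene ASPWEDRAFT_115153 and -2.32 for the symporter gene ASPWEDRAFT_134254.

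Among trehalose genes it was 1.45 for ASPWEDRAFT_173702 (*orlA*) and 1.59 for ASPWEDRAFT_99274 (*tpsA*). Among antioxidant genes it was 1.71 for the superoxide dismutase gene ASPWEDRAFT_506345, 1.99 and 3.68 for the catalase genes ASPWEDRAFT_53830 and ASPWEDRAFT_116154, and 6.0 for the cytochrome c peroxidase gene ASPWEDRAFT_54185. In the glutathione group it was 1.91 for ASPWEDRAFT_53567, 2.27 for ASPWEDRAFT_22967 and -2.41 for ASPWEDRAFT_620702. The chitin synthase gene ASPWEDRAFT_189665 had 1.43.

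Of the genes without product names, the difference was 10.15 for ASPWEDRAFT_158670, 7.79 for ASPWEDRAFT_46704, 14.65 for ASPWEDRAFT_531408 and 14.46 for ASPWEDRAFT_168039. It was -5.96 for ASPWEDRAFT_102062, -4.19 for ASPWEDRAFT_34272, -4.38 for ASPWEDRAFT_102876, -2.49 for ASPWEDRAFT_28872 and -1.27 for ASPWEDRAFT_187989. Of the 19 listed genes above, 2 passed the test without both libraries. None of the genes without product names passed it then. ASPWEDRAFT_531408 had 4.09 (adjusted p = 0.0689), ASPWEDRAFT_168039 1.62 (adjusted p = 0.829), ASPWEDRAFT_158670 5.42 (adjusted p = 0.109) and ASPWEDRAFT_46704 1.79 (adjusted p = 0.288). For the 5 negative differences the adjusted p was 0.0522 or more. The size of the difference for ASPWEDRAFT_158670 is uncertain, as every 'c *gfdB* sorbitol library had 0 reads.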

How the results depend on the processing

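The shares of genes tested that were called were 13.1% higher and 3.6% lower. Other settings gave 7.52% higher (limma on RPKM), 5.94% and 1.01% (the 6 libraries alone) and 6.19% lower (limma-voom with library weights, chosen after seeing the data). Leaving out 1 library gave 8.74% to 15.5% higher and 2.36% to 8.16% lower. DESeq2 called 1507 and 440 genes. For the strain difference, against 1734 genes, the 12 libraries alone gave 0 and leaving out 1 library gave 516 to 3053. Leaving out both 'c *gfdB* NaCl replicate 1 and CBS141173 sorbitol replicate 2 gave 89. With the replicate block the counts were 1267 higher, 387 lower and 1429 for the strain difference. Same-numbered libraries had deviation correlations of 0.045, 0.151 and -0.122, and 1 of 3 NaCl libraries was most like its own number. With 3 libraries a group and NaCl replicate 1 apart, these values cannot decide whether same-numbered cultures were paired.

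Of 648 alternative fold changes of named genes 546 kept their direction and side of the adjusted p limit, 77 no longer passed it and 13 newly passed it. Of 503 strain differences 361 kept theirs and 142 no longer passed. The fold limit was not counted here. ASPWEDRAFT_121910 (-0.99) and ASPWEDRAFT_187989 (-0.93) without NaCl replicate 1 count as kept, though their calls were lost. Of the 41 genes behind these fold changes 4 changed sign, none of them called. ASPWEDRAFT_117545 was -0.24 without NaCl replicate 1 and -0.30 in the 5 libraries left, with 1.01 the highest on leaving out 1 library. ASPWEDRAFT_202686 was -0.01 (limma), -0.40 (without NaCl replicate 1), -0.17 (weights) and -0.46 (5 libraries), and at most 0.38 on leaving out 1 library. ASPWEDRAFT_33357 was -0.01 (no filter), -0.52 (without NaCl replicate 1), -0.20 (without sorbitol replicate 1), -0.57 (weights) and -0.59 (5 libraries), and at most 0.28 likewise. ASPWEDRAFT_51084 was -0.01 without NaCl replicate 2 and 0.25 without sorbitol replicate 3. Among genes named for the strain difference, ASPWEDRAFT_168039, called higher at 7.45, was -0.43 without NaCl replicate 1, and the uncalled ASPWEDRAFT_748248 and ASPWEDRAFT_53567 went from 1.07 to -0.71 and from 0.10 to -0.02. The cause was not tested. Depth, at 12117205 reads or more, limits genes of few reads, and 3 libraries a group, 1 of them apart, limit the rest.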

Other observations

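Untreated 'c *gfdB* cultures place the called genes. Of the 1452 genes higher under NaCl, the untreated mean lay below both stress means in 44.9%, between them in 45.8% and above both in 9.3%. Over all genes tested these shares were 39.1%, 27.1% and 33.9%. Of the 399 lower genes, 22.1% had the untreated mean below both and 58.9% between. No test was made of these shares, since the stress means also made the calls.

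Levels in the combined NaCl + sorbitol cultures were not between those of the single osmolytes for several genes. *atfA* (ASPWEDRAFT_37015) stood at 33.88 ± 6.998 RPKM (SD, n = 3) there and 30.3 ± 3.77 RPKM in untreated cultures, below all libraries under either osmolyte alone. The catalase gene ASPWEDRAFT_53830 stood at 67.5 ± 7.24 RPKM in the combined cultures and 31.6 ± 5.25 RPKM in untreated cultures, again below all 6. These genes were chosen after their values were seen.

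Strain identity was examined through 3 genes that were more than 4 times higher in all 12 CBS141173 libraries than in the other 11 'c *gfdB* libraries. In NaCl replicate 1, ASPWEDRAFT_37903 stood at 4.14 RPKM (CBS141173 6.44 or more, other 'c *gfdB* at most 1.32) and ASPWEDRAFT_46442 at 116.8 RPKM (155.7 or more, at most 38.7). ASPWEDRAFT_73422 stood at 0.0879 RPKM there (1.45 or more, at most 0.132). The first pair lay between the strains and the third within the range of 'c *gfdB*.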
